A study of Homo sapiens with 18 samples.

Results

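The replication-dependent histone genes of the human prostate cancer cell line VCaP were described across an ERG knockdown and a time course of the ERG inhibitor PBITE-1. The members were the genes with a current symbol of the series H1-1 to H1-6, H2AC, H2BC, H3C, or H4C and a sum of at least 30 counts over the 18 samples. This rule gave 52 of the 22034 genes in the table, of which 4 were linker histone H1 genes, 12 H2A, 16 H2B, 10 H3, and 10 H4. Of the 69 annotated genes of these names, 5 were not analysed here (H1-5, H2AC19, H3C14, H3C15, and H4C6) and 12 fell under the minimum. The members just inside it were H2AC7 with 30 counts and H2BC3 with 37, and the genes just outside were H2AC4 and H2AC21 with 29 counts each and H4C13 with 24.

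VCaP is a line from a prostate cancer metastasis that carries the *TMPRSS2:ERG* fusion, in which an androgen-driven promoter places ERG under high expression. VCaP-shERG cells carry a doxycycline (Dox)-inducible short hairpin against ERG and were given vehicle (labelled shERG.DMSO) or 1 µg/mL Dox. Parental VCaP cells were given DMSO or 50 µM PBITE-1, a small molecule that binds the PNT domain of ERG, for 4, 8, or 12 h. Each of the 6 groups held 3 samples. All came from 1 cell line, the collection time of the DMSO samples is not in the labels, no Dox sample of cells without the ERG hairpin was analysed here, and the duration of Dox is given as 12 h by a diagram of the study but not by the labels.

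These genes supply the bulk of the histones that package newly copied DNA. H2A, H2B, H3, and H4 form the core of the nucleosome, and H1 binds the DNA that enters and leaves it. The genes lie in clusters and mostly lack introns. Their mRNAs are the major class of animal mRNAs that end in a conserved stem-loop in place of a poly(A) tail, which the stem-loop binding protein SLBP holds for processing, export, and translation. They build up in S phase and decay when DNA synthesis stops. Some histone genes also give polyadenylated transcripts in cells that have left the cycle. The libraries here were made from rRNA-depleted total RNA, which keeps both forms, and the table does not separate them.

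Depth was even, with totals from 11308600 to 17483423 counts per sample. As a mean over a group, 3 counts in a library correspond to about 0.184 to 0.23 CPM (counts scaled to a fixed library size). ERG, the target of the hairpin, had 461, 449, and 433 CPM in shERG-vehicle and 166, 167, and 159 CPM in shERG-Dox, with no overlap. The luminal prostate genes KLK2 and HOXB13 were counted at 95.6 CPM or more on average in every group, whereas CD3E, CDH5, and COL1A2 had at most 1 count in any library. COL1A1 went from 1.31 CPM with DMSO to 6.17 CPM after 12 h, and from 1.36 CPM with vehicle to 5.62 CPM with Dox. PECAM1 went from 0.0613 to 1.55 CPM after 12 h, and KLK3, a luminal gene, from 84.3 to 7.90 CPM. The part of these differences in the results on histone genes was not tested. All levels are CPM scaled by TMM within each experiment and are not divided by gene length, so they are compared between samples and not between genes. In bulk RNA, a change in the share of cells in S phase and a change per cell cannot be told apart.

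The stem-loop was found by its conserved letters in the annotated transcripts of 24 members in GENCODE release 29 on GRCh38. It is printed for 10 members whose values are described below, with the 16 bases of the stem-loop in capitals and 5 bases on each side, 5′ to 3′ as DNA, because it is the shared element that sets this family apart.
H2AC6: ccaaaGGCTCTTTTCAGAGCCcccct
H2BC6: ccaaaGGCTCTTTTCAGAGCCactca
H2BC26: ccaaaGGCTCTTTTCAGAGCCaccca
H3C10: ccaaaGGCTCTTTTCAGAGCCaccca
H2BC4: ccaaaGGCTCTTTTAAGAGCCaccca
H2BC5: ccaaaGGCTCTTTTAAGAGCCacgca
H2AC11: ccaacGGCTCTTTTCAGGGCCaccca
H3C6: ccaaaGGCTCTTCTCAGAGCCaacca
H4C8: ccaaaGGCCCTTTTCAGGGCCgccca
H4C16: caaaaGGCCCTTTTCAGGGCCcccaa
The form shown for H2AC6 was shared by 13 members of the H2A, H2B, and H3 classes, that of H4C8 by 5 H4 members, and that of H2BC4 by 3 H2B members. The forms of H2AC11, H3C6, and H4C9 were each found once. Many models of the release hold coding sequence only, so a stem-loop that was not found in them says nothing of the gene. In several members the annotated transcript runs on past the stem-loop, as in H2AC6 by 1114 to 1128 bases, in H2BC26 by 1917 bases, and in H3C6 by 5 to 1862 bases.

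Promoter windows of 250 bases before to 50 bases after the start were present in RefSeq (GRCh38.p14) for 47 members. The octamer ATTTGCAT, on either strand, was in at least 1 window of 21 of these, against 1.77% of all 35116 windows. By class it was in 12 of 16 H2B and 8 of 11 H2A members, and in none of the 4 H1 and 8 H4 members. This octamer is the element through which the factor POU2F1 is known to act at H2B promoters. CCAAT was in 40 of 47 members against 34.6% of all windows, and in 1 of 8 H4 members. TATAAA was in 32 of 47 against 11.5%. Windows of H2A and H2B genes that start close together on opposite strands overlap, as do those of H2AC11 and H2BC11. A motif in the shared bases is counted for both genes, so the H2A and H2B counts are not independent. The 250 bases before the start are shown for 3 members on the minus strand, 5′ to 3′ along the gene, with these 3 motifs on either strand in capitals. H2BC11 and H2BC4 were the members with the largest decrease and the largest increase after Dox among the well-counted ones, and H4C16 was the well-counted member with the largest decrease from 8 to 12 h.
H2BC11, chr6:27132796-27133045: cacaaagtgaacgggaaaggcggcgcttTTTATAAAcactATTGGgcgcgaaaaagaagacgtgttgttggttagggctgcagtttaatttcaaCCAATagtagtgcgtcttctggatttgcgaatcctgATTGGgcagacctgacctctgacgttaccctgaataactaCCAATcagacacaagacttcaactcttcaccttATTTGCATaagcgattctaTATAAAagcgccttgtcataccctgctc
H2BC4, chr6:26123927-26124176: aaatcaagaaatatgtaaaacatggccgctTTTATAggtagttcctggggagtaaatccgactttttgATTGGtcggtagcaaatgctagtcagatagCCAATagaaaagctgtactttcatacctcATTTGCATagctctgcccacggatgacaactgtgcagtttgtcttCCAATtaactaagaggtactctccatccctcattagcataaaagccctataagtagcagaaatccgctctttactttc
H4C16, chr12:14771132-14771381: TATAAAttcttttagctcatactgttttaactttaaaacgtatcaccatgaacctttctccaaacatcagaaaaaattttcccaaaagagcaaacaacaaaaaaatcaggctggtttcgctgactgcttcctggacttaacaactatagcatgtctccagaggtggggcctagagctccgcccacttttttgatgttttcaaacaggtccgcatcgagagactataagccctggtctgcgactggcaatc
Both H2B windows hold the octamer and CCAAT, and the H4C16 window holds neither. After 4 h of PBITE-1 the median log2 fold change was 2.48 over the 18 tested members with the octamer and 2.40 over the 24 tested members whose window lacked it, and after Dox these medians were -0.54 and -0.54.

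Histone genes of every class rose within 4 h of PBITE-1. The summed level of the 52 members was 304, 287, and 291 CPM with DMSO and 1534, 1387, and 1389 CPM at 4 h, a 4.88-fold difference. After 8 h it was 1495, 1567, and 1557 CPM, and after 12 h 1040, 1072, and 1053 CPM, which is 5.23-fold and 3.58-fold of DMSO. The DMSO samples lay below every PBITE-1 sample, and the 12 h samples below every sample of 4 and 8 h. As a share of all counts the members went from 0.0302% on average with DMSO to 0.143% at 4 h, 0.151% at 8 h, and 0.105% at 12 h. These sums are given without a test.

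**Figure D1:**
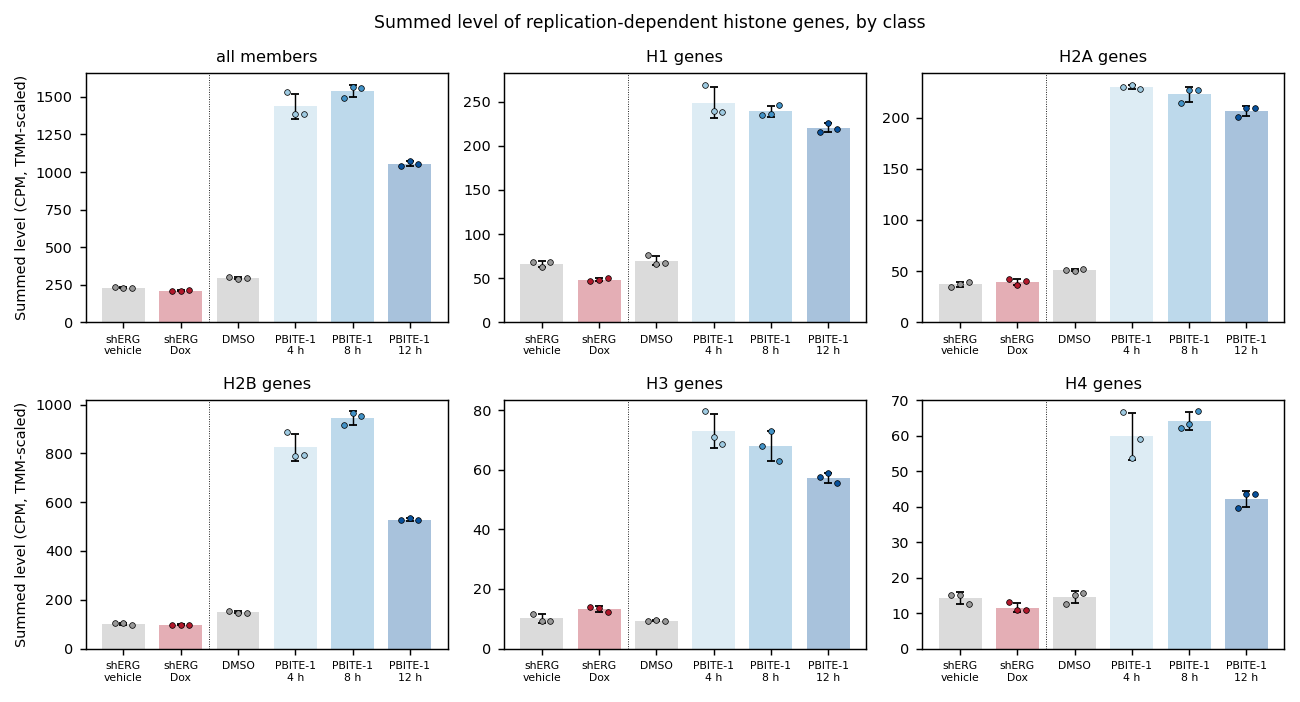
Summed level of the members and of each histone class (CPM scaled by TMM, linear axes from 0) in 18 samples; points are samples, bars means, and error bars SD (n = 3), with the 2 experiments parted by a dotted line. All PBITE-1 samples lie above all DMSO samples in every panel, whereas the means of shERG-vehicle and shERG-Dox are closer (229.5 and 210.1 CPM over all members), with H1 1.37-fold lower and H3 1.31-fold higher after Dox, both without overlap. The mean H3 sum went from 10.1 to 13.3 CPM after Dox, and that of H3C6 alone from 0.534 to 5.18 CPM. The median log2 fold change of the tested H3 members was -0.40.

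Gene by gene, 46 of the 52 members passed the filter on low counts. With limma-voom and an adjusted p under 0.05, 40 of these 46 were higher at 4 h against 26.4% of all 14164 genes tested, 42 at 8 h against 35.9%, and 37 at 12 h against 39.4%. None was lower at 4, 8, or 12 h, where 24.7%, 37%, and 39.4% of all genes were. At an unadjusted p under 0.05 the number lower was 0 at each time, as it was with edgeR and DESeq2 at the adjusted threshold. The median log2 fold change of the tested members was 2.35 after 4 h, 2.36 after 8 h, and 1.96 after 12 h, beside -0.01, -0.02, and -0.01 over all genes. These counts, and the counts by class below, include 20 members that passed the filter although they were under its level in at least 1 DMSO sample. Of the 26 members at that level in all DMSO samples, 24, 25, and 23 were higher at the 3 times. With no filter, 38, 39, and 37 of all 52 members were higher, against 17.3%, 25.4%, and 27.4% of 21560 genes, and 1 was lower, H3C3 at 4 h. A total of 35 members were higher at all 3 times, and 2 at none, H2AC14 and H4C2. The shares of all genes that met these conditions are not given here. The 35 also include members under the filter level with DMSO.

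**Figure D2:**
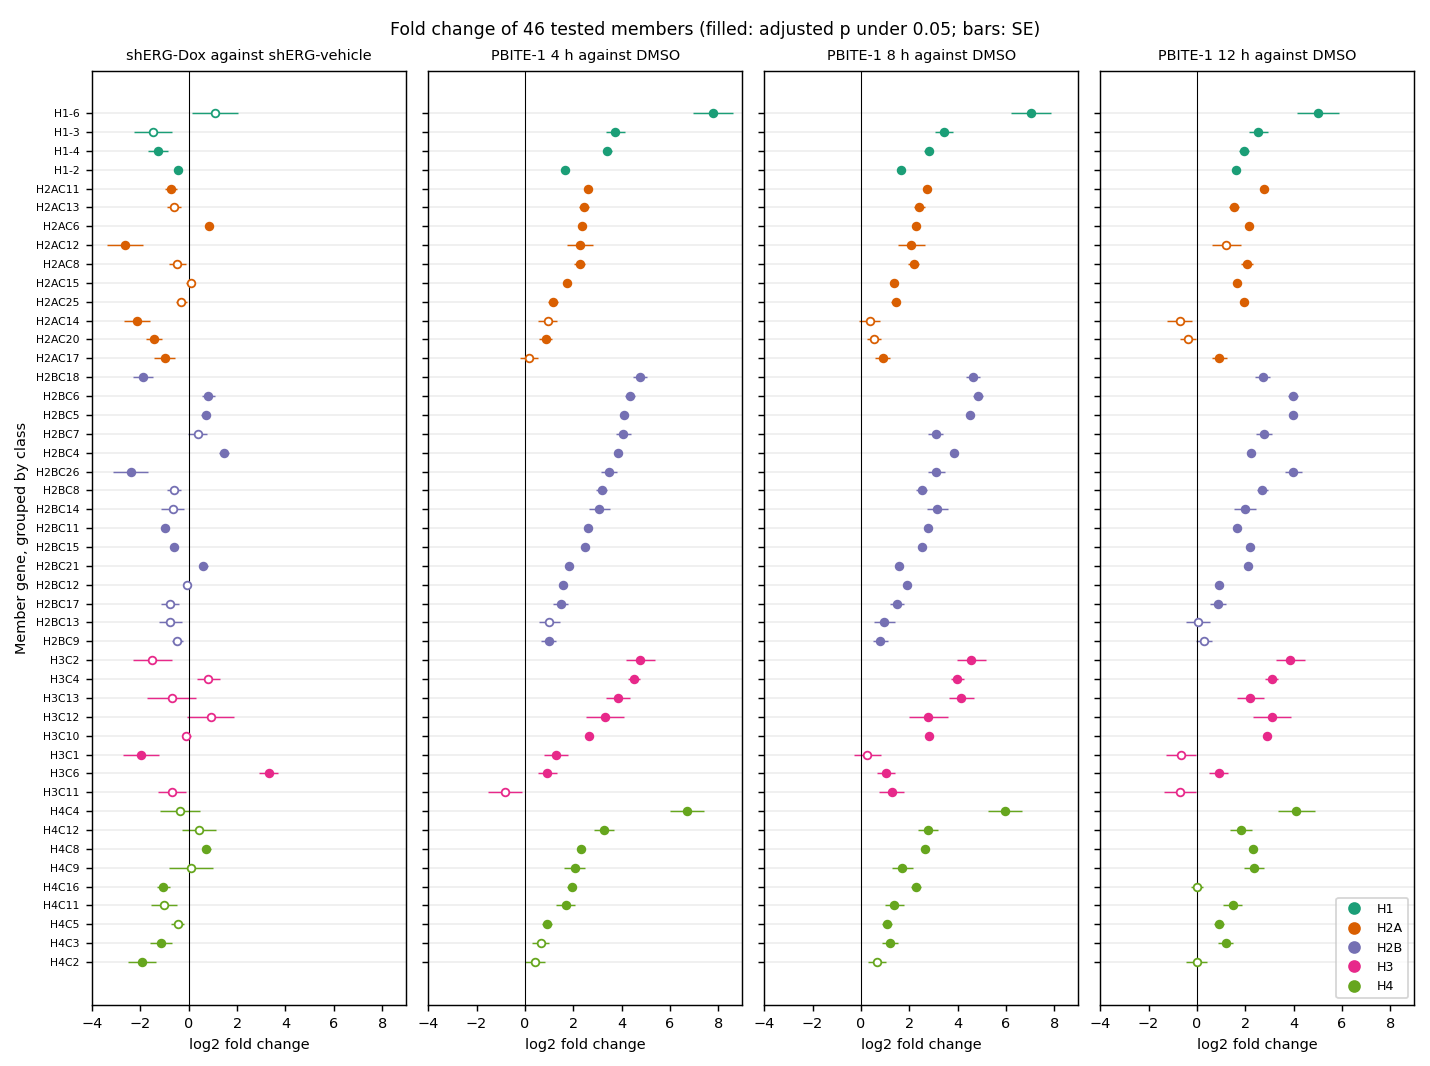
Log2 fold change (limma-voom, bars SE) of the 46 tested members after Dox and after 4, 8, and 12 h of PBITE-1, colored by class and ordered within a class by the 4 h value; filled points passed an adjusted p of 0.05. In the PBITE-1 panels nearly all points lie to the right of 0, with medians of 2.35, 2.36, and 1.96, and in the Dox panel they lie on both sides, with a median of -0.61.

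Among linker histone genes, all 4 members were higher at every PBITE-1 time. However, H1-3 (9, 5, and 12 counts with DMSO) and H1-6 (0 counts) were under the filter level with DMSO and passed the filter through the PBITE-1 samples. H1-2 (ENSG00000187837, chr6:26055787-26056428, minus strand), a somatic H1 variant, had 73.7, 63.0, and 65.1 CPM with DMSO and 230, 204, and 203 CPM at 4 h. It stayed at 204 to 220 CPM at 8 and 12 h, so that its 3 PBITE-1 groups overlapped, and its log2 fold changes were 1.66 ± 0.05 (SE), 1.68 ± 0.05, and 1.63 ± 0.05 (adjusted p at 12 h = 2.35e-26). H1-2 took 96.2% of the H1 counts with DMSO and 85.2% at 4 h. H1-4, another somatic variant, rose from 2.04, 2.50, and 1.83 CPM to 24.6, 21.2, and 22.8 CPM at 4 h and was at 7.89, 7.06, and 9.75 CPM at 12 h, above DMSO and below 4 h without overlap.
H1-6, the testis H1 variant, had 0 counts in all DMSO samples and 76 to 110 counts per library at 4 h, at least 36.5-fold higher against a floor of 3 counts per library. At 12 h it had 12 to 18 counts, at least 5.24-fold higher. Its bounds, 5.19, 4.48, and 2.39 on the log2 scale at 4, 8, and 12 h, lie above the 3 medians over the tested members. Setting H1-6 to them could therefore not move these medians.

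The summed level of the H2A class was 4.51-fold higher at 4 h, going from 51.1, 50.1, and 51.8 CPM to 230, 232, and 228 CPM. It was still at 201, 210, and 210 CPM at 12 h, 4.05-fold above DMSO. Single tests called 8 of 10 H2A members higher at 4 h, 8 at 8 h, and 7 at 12 h. H2AC6 (ENSG00000180573, chr6:26124145-26139116, plus strand) took 58.9% of the H2A counts with DMSO and 66.7% at 4 h. It rose from 29.4, 29.1, and 31.6 CPM to 154, 158, and 148 CPM at 4 h and was at 131 to 136 CPM at 12 h (log2 fold change 2.14 ± 0.06, adjusted p = 8.91e-29). H2AC11 differed little between the times, with ranges of 18.5 to 22.8 CPM after 4 h, 21.7 to 23.9 CPM after 8 h, and 21.5 to 24.1 CPM after 12 h, above its DMSO range of 2.44 to 4.11 CPM. H2AC25, on chromosome 1, had log2 fold changes of 1.16 ± 0.20, 1.44 ± 0.19, and 1.94 ± 0.18 at 4, 8, and 12 h, and the step from 8 to 12 h passed the test (0.50 ± 0.13, adjusted p = 0.00154). H2AC20, H2AC14, and H2AC12 had no call at 12 h, with log2 fold changes of -0.36, -0.72, and 1.22.

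The H2B class held the most counts of the family, and its sum was 5.52-fold above DMSO at 4 h, 6.32-fold at 8 h, and 3.54-fold at 12 h. Single tests called 14, 15, and 13 of 15 H2B members higher. The calls of H2BC13 and H2BC9 at 8 h were lost under several other settings. H2BC12 (ENSG00000197903, chr6:27146418-27146798, minus strand) had 85.1, 78.9, and 78.9 CPM with DMSO, 268, 233, and 227 CPM at 4 h, 285, 314, and 306 CPM at 8 h, and 156, 156, and 148 CPM at 12 h. Its groups did not overlap, and it took 54.2% of the H2B counts on average with DMSO and 29.4% at 4 h. H2BC5 went from 7.49, 6.53, and 5.54 CPM to 141, 153, and 149 CPM at 8 h, a log2 fold change of 4.51 ± 0.12. H2BC6 had the largest change at 8 h among the well-counted members, from 2.43, 2.75, and 3.48 CPM to 79.5, 85.1, and 89.6 CPM, a log2 fold change of 4.86 ± 0.21 (adjusted p = 1.3e-22). H2BC26 (ENSG00000196890, chr1:228458107-228460470, plus strand) had the largest change at 12 h among the well-counted members, from 0.394, 0.61, and 0.571 CPM with DMSO to 8.12, 8.89, and 9.14 CPM, a log2 fold change of 3.99 ± 0.34 (adjusted p = 1.74e-13). With DMSO it had only 6, 10, and 10 counts, under the filter level. It met the mean count of 50 through its 12 h samples (109, 136, and 136 counts), so the size of the change rests on a low baseline. Its 12 h samples lay above those of 4 h (5.36, 6.79, and 6.21 CPM) and 8 h (5.13, 4.96, and 4.03 CPM).

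H3 members were few in counts, and their sum went from 9.33, 9.58, and 9.13 CPM with DMSO to 79.6, 70.9, and 68.7 CPM at 4 h, 7.82-fold, and was 6.13-fold above DMSO at 12 h. H3C10 (ENSG00000278828, chr6:27810064-27811300, plus strand) rose from 5.78, 4.82, and 5.65 CPM to 37.1, 33.6, and 32.3 CPM at 4 h and 39.98, 43.1, and 39.3 CPM at 12 h (log2 fold change 2.91 ± 0.13). H3C4 rose more at 4 h, from 0.723, 1.77, and 1.14 CPM to 29.5, 26.1, and 25.4 CPM, and was at 9.61 to 10.6 CPM at 12 h. H3C4 thus took 12.9% of the H3 counts with DMSO, 37% at 4 h, and 17.5% at 12 h. All stretches of 100 bases of the annotated transcript of H3C4 also occur in another annotated gene (ENSG00000282988), so reads of these genes cannot be told apart.

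The H4 sum was 4.13-fold higher at 4 h, going from 12.6, 15.2, and 15.6 CPM to 66.5, 53.6, and 59.1 CPM, and was 2.92-fold above DMSO at 12 h. H4C8 (ENSG00000158406, chr6:26277609-26285638, minus strand) rose from 3.88, 4.58, and 4.85 CPM to 24.8, 19.5, and 24.2 CPM at 4 h and was at 20.7 to 23.5 CPM at 12 h (log2 fold change 2.32 ± 0.15). H4C4 (ENSG00000277157, chr6:26188765-26189076, minus strand) had 3 counts in all over the DMSO samples and 97 to 104 per library at 4 h, a ratio of 125 with a 95% counting interval of 42.3 to 609. Its level fell at each later time. It was 8.08, 7.68, and 7.17 CPM at 4 h, 4.38, 4.89, and 4.39 CPM at 8 h, and 0.596, 2.09, and 1.41 CPM at 12 h.
H4C16 (ENSG00000197837, chr12:14767999-14771131, minus strand), the lone member outside chromosomes 1 and 6, rose from 2.04, 3.54, and 3.08 CPM to 12.8, 9.52, and 11.01 CPM at 4 h and 12.54, 15.97, and 13.6 CPM at 8 h. It was at 2.90, 2.62, and 3.03 CPM at 12 h, within the range of the DMSO samples. The change from 8 to 12 h was the largest decrease among the well-counted members, -2.28 ± 0.20 (adjusted p = 1.36e-12), whereas the difference from DMSO at 12 h was 0.00 ± 0.25.

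**Figure D3:**
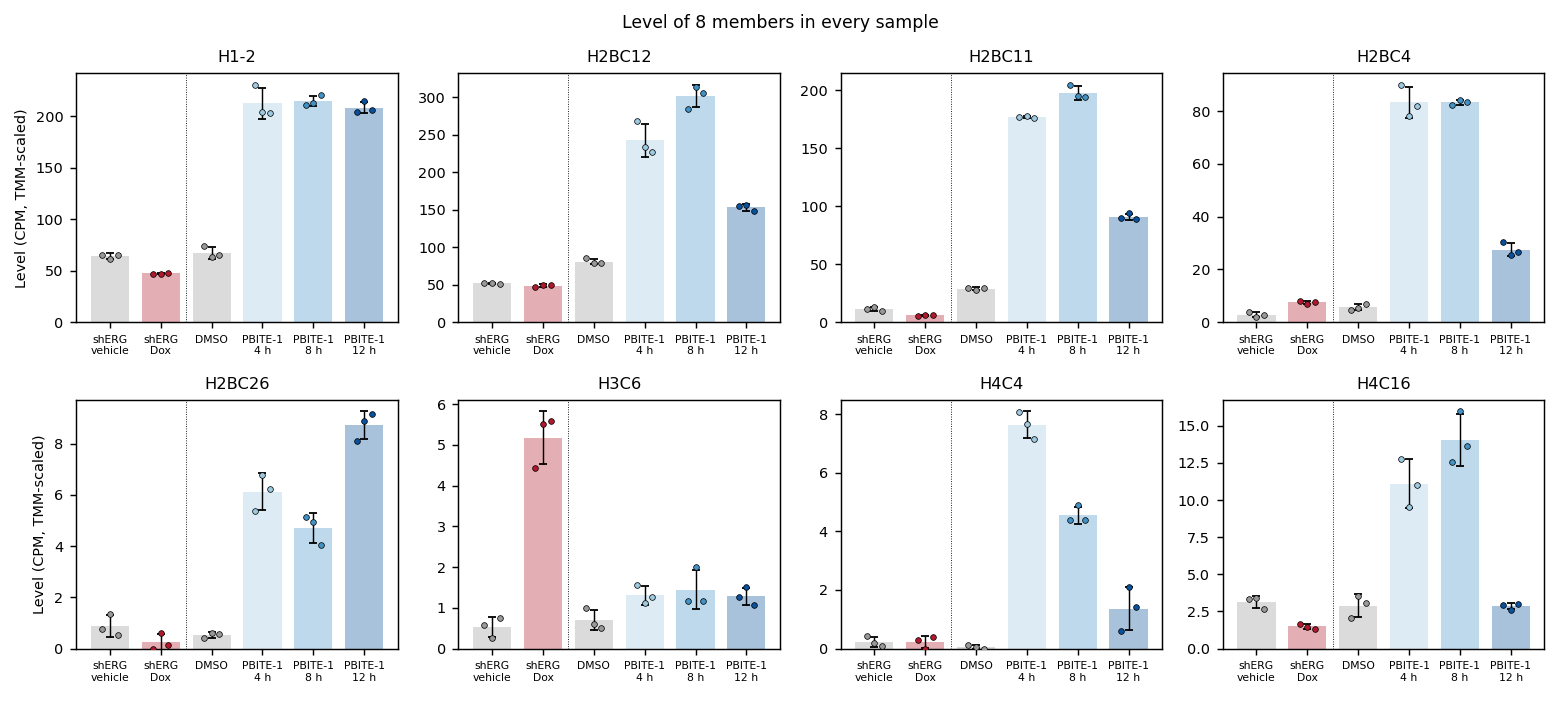
Level of 8 members in every sample (CPM scaled by TMM, linear axes from 0 with a scale of their own in each panel); points are samples, bars means, and error bars SD (n = 3). H1-2 keeps 204 to 220 CPM at 8 and 12 h, H4C16 is back at 2.62 to 3.03 CPM at 12 h, H2BC26 is highest at 12 h, and H3C6 is highest in shERG-Dox.

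From 4 to 8 h about as many members rose as fell, whereas most of those that changed from 8 to 12 h fell. From 4 to 8 h, 8 of 46 members were lower against 26.3% of all genes and 7 higher against 26.7%, with a median of -0.04. The best-counted extremes were H2BC7, which fell by 0.99 on the log2 scale (from 12.53, 13.7, and 12.05 CPM to 5.83, 7.23, and 6.37 CPM), and H2BC6, which rose by 0.51. From 8 to 12 h, 23 members were lower against 32.5% of all genes and 4 higher against 27.8%, with a median of -0.65 beside -0.04 over all genes. The 4 that rose were H2BC26 (0.87 ± 0.16), H2BC21 (0.55 ± 0.08), H2AC25 (0.50 ± 0.13), and H2AC15 (0.26 ± 0.11), and the former 3 lie on chromosome 1, where the other 3 members fell, H3C13 (-1.96), H2BC18 (-1.92), and H2AC20 (-0.90). The call of H2AC15 was lost with DESeq2, with no filter, and without any 1 of 4 samples (replicates 1 and 2 of 8 h and 2 and 3 of 12 h). By class, the H2B sum was 1.79-fold lower and the H4 sum 1.52-fold lower at 12 h than at 8 h, and the sums of H1, H2A, and H3 were 1.09-fold, 1.08-fold, and 1.19-fold lower, with no overlap in any class. The sums follow the best-counted genes, and the median log2 fold changes over the tested members of a class had another order, -0.88 for H1, -0.80 for H3, -0.63 for H2B, -0.32 for H4, and -0.14 for H2A. Over the 44 members with a call at any time, the mean was highest at 4 h for 23, at 8 h for 15, and at 12 h for 6. The difference between classes was not tested.

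ERG knockdown moved these genes much less and in both directions. The summed level was 234, 228, and 226 CPM in shERG-vehicle and 211, 207, and 212 CPM in shERG-Dox, 1.09-fold lower with no overlap under TMM scaling, and the log2 ratio was -0.13 with TMM and 0.13 with library size alone. Of 46 members 15 were lower, against 35.3% of all genes, and 7 were higher, against 35.1%. The share of members called lower was therefore near that of all genes, and the median log2 fold change was -0.61 beside 0.02. With no filter, 14 of 52 were lower against 22.7% of 21560 genes. Library size alone moved the median over all genes to 0.28, and then 12 members were lower and 9 higher.

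The 15 lower members included the H1 genes H1-2 and H1-4. H1-2 fell from 65.5, 60.9, and 65.6 CPM to 46.8, 46.9, and 48.1 CPM (-0.43 ± 0.06, adjusted p = 2.55e-07). H1-4 fell from 2.66, 1.62, and 1.498 CPM to 0.363, 0.855, and 1.32 CPM (-1.27 ± 0.41, adjusted p = 0.00835). The call of H1-4 was lost without Dox replicate 1 (-0.76) and with no filter. H2BC11 (ENSG00000124635, chr6:27125897-27132750, minus strand) had the largest decrease among the well-counted members. It went from 11.4, 13.1, and 9.81 CPM to 5.23, 5.83, and 6.43 CPM, without overlap, a log2 fold change of -0.97 ± 0.15 (adjusted p = 3.76e-06). H2AC12 had 19 counts in all in shERG-vehicle and 2 in shERG-Dox, a ratio of 0.107 with a 95% counting interval of 0.0121 to 0.443. H4C16 fell from 3.33, 3.38, and 2.70 CPM to 1.67, 1.48, and 1.32 CPM (-1.05 ± 0.28). H2BC12, the best-counted H2B gene, was at 52.2, 52.7, and 51.6 CPM in vehicle and 47.1, 50.1, and 49.8 CPM with Dox, without overlap but not past the test (-0.09 ± 0.06, adjusted p = 0.157).

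The 7 members that rose after Dox were H2AC6, H2BC4, H2BC5, H2BC6, H2BC21, H3C6, and H4C8. H2BC4 (ENSG00000180596, chr6:26114873-26123926, minus strand) went from 3.82, 2.16, and 2.62 CPM to 8.07, 6.996, and 7.60 CPM, 1.45 ± 0.21 on the log2 scale (adjusted p = 8.51e-07). H2AC6, whose start lies 219 bases from that of H2BC4 on the other strand, went from 11.9, 11.6, and 15.9 CPM to 24.9975, 20.9, and 23.1 CPM (0.83 ± 0.11). H3C6 (ENSG00000274750, chr6:26224199-26227473, plus strand) went from 0.582, 0.271, and 0.749 CPM to 4.43, 5.52, and 5.58 CPM (3.31 ± 0.39, adjusted p = 2.91e-08). All 7 belonged to the 22 members whose annotated span exceeds 1000 bases in GENCODE release 29 or RefSeq, of which 6 fell. None was among the 24 tested members of shorter span, of which 9 fell. The 7 of 22 and the 9 of 24 were near the shares of all genes, 35.1% higher and 35.3% lower. The split by span was looked for after the values were seen and is given without a test. With PBITE-1 all 22 long members were higher at 4 and 8 h and 20 at 12 h, with medians of 2.61, 2.69, and 2.33. Of the 24 short members, 18, 20, and 17 were higher at these times, with medians of 1.72, 1.58, and 1.58. The shares of all genes were 26.4%, 35.9%, and 39.4%. No long or short member was lower with PBITE-1. Long members were thus more often higher here too, which was not tested. The 2 sets also differ in counts, as several short members had few, and the part of counts in this was not tested.

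**Figure D4:**
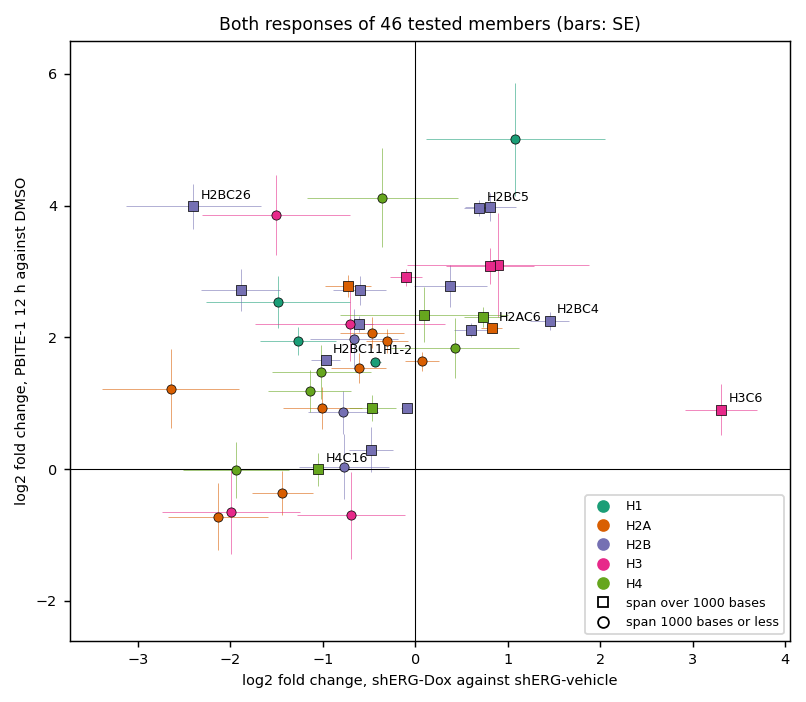
Log2 fold change after Dox (x axis) against log2 fold change after 12 h of PBITE-1 (y axis) for the 46 tested members; bars are SE, colors mark the class, squares members with an annotated span over 1000 bases and circles shorter ones. Most points lie above 0 on the y axis and left of 0 on the x axis, and H3C6 lies far to the right at 3.31.

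The responses to Dox and to 12 h of PBITE-1 were compared by an interaction term fitted over the 18 samples. The PBITE-1 response was the higher of the 2 for 37 of 46 members, against 33.3% of all genes, and the lower for 1, against 35.1%. Of all genes, 35.3% were lower after Dox and 39.4% higher at 12 h. The share that met both and differed by this test is not given here, so the following count has no such share beside it. A total of 9 members fell after Dox, rose after 12 h of PBITE-1, and differed by this test, namely H1-2, H1-4, H2AC11, H2AC17, H2BC11, H2BC15, H2BC18, H2BC26, and H4C3. Of these calls after Dox, that of H2BC26 (-2.40) was lost without Dox replicate 1 (-1.27) and with no filter, as was that of H1-4. The call of H2AC11 (-0.73) was lost without vehicle replicate 2 (-0.59) or Dox replicate 1 (-0.64) and with library size alone (-0.47). Those of H2AC17 and H4C3 were lost without any 1 of several samples. Among the well-counted members the difference was largest for H2AC11, 3.47 ± 0.31 (adjusted p = 2.12e-13). The 7 members that rose after Dox also rose after 12 h of PBITE-1. However, the call of H2BC6 after Dox (0.81) was lost without vehicle replicate 2 (0.40) and with no filter. H3C6 was the exception in size, with a log2 fold change of 3.31 after Dox and 0.90 ± 0.39 after PBITE-1, a difference of -2.45 ± 0.56 (adjusted p = 0.000152). Its call at 12 h was lost with DESeq2 and without any 1 of 4 samples (DMSO replicates 2 and 3 and PBITE-1 replicates 1 and 2).

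By position, 45 members lie on chromosome 6 in 3 groups, 26 at 26020490 to 26285638, 5 at 27125897 to 27147515, and 14 at 27807444 to 27893843, and 6 lie on chromosome 1 and 1 on chromosome 12. The median log2 fold change at 4 h was 3.18 over the 21 tested members of the first group, 2.28 over the 5 of the second, 1.75 over the 13 of the third, and 2.66 over the 6 on chromosome 1. After Dox, 6 of the 21 members of the first group rose and 5 fell, 3 of 5 fell in the second, and 3 of 13 fell in the third, beside 35.1% of all genes higher and 35.3% lower. The first and the third group were under these shares. The starts of 11 pairs of members lie at most 1000 bases apart on opposite strands, and most are H2A and H2B genes. In the pair of H2BC11 and H2AC11, 292 bases apart, the log2 fold changes at 4 h were 2.61 and 2.61, and at 12 h 1.65 and 2.78. In the pair of H2BC21 and H2AC20, 323 bases apart, they were 0.60 and -1.44 after Dox and 2.12 and -0.36 at 12 h. Pairs with a shared start region thus had like values in some cases and unlike values in others.

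Some members have near-identical copies, and their reads could have been split or dropped in counting. Of 50 members with transcripts in GENCODE release 29, 33 had no stretch of 100 bases in common with another gene, 17 had some, and in 8 over 50% of such stretches were shared. These 8 were H3C4 and H2AC7, which share most with ENSG00000282988, the pairs of H4C11 and H4C12 and of H2AC13 and H2AC14, H2AC17, which overlaps H3C12, and H3C13. Values of these genes are uncertain one by one. Over the 29 tested members with no shared stretch, 25, 27, and 22 were higher at 4, 8, and 12 h, against 26.4%, 35.9%, and 39.4% of all genes. After Dox 8 of the 29 were lower and 5 higher, both under the shares of all genes, 35.3% and 35.1%.

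Genes that make, load, or use histone mRNA were taken as lists for comparison. The shares of all genes to read their counts against are 24.7% lower and 26.4% higher at 4 h, 37% and 35.9% at 8 h, 39.4% and 39.4% at 12 h, and 35.3% and 35.1% after Dox. Of 19 genes of histone mRNA processing and decay, 5 were lower and 3 higher at 4 h, the former near the share of all genes. At 8 h and at 12 h 11 were lower and 3 higher, and 14 were lower after Dox. SLBP, which binds the stem-loop, rose at all 3 times and fell after Dox. It had 79.4, 82.5, and 77.4 CPM with DMSO, 128, 130, and 133 CPM at 4 h, 164, 171, and 167 CPM at 8 h, and 82.1, 101, and 91.3 CPM at 12 h, and it fell from 80.2, 85.7, and 77.6 CPM to 43.7, 41.9, and 44.9 CPM after Dox (-0.90 ± 0.06). LSM11, a subunit of the U7 particle that cuts histone pre-mRNA, was lower in all 4 comparisons (-0.54 after Dox and -0.77, -0.55, and -0.60 with PBITE-1), as was ZNF473, another U7-associated factor (-0.66, -0.31, -0.37, and -0.49). LSM10, the partner of LSM11, passed the test at 8 h only (-0.74). MBLAC1, a nuclease of histone pre-mRNA, had the largest change of the list at 12 h (-1.19 ± 0.53).

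Of 20 genes of histone gene transcription, 8 were higher and 6 lower at 4 h, 10 higher and 3 lower at 8 h, 8 higher and 9 lower at 12 h, and 4 higher and 13 lower after Dox. The number lower at 4 h and both numbers at 12 h were near the shares of all genes. NPAT, the coactivator at histone loci, was higher at 4, 8, and 12 h (0.52, 0.49, and 0.16) and lower after Dox (-0.42). CASP8AP2, its partner in histone locus bodies, was higher at 4 and 8 h (0.40 and 0.66) and lower at 12 h (-0.12) and after Dox (-0.75). CCNE2, a cyclin that activates CDK2 toward NPAT, had the largest change of the list after Dox, from 80.9, 81.9, and 74.1 CPM to 21.0, 21.6, and 24.3 CPM (-1.83 ± 0.07), and was also lower at 12 h (-2.16). CDKN1A, an inhibitor of CDK2, had the largest at 12 h, from 50.2, 46.7, and 44.5 CPM to 363, 410, and 390 CPM (3.05 ± 0.05).

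Most DNA replication genes did not rise. At 4 h, 17 of 38 were lower and 6 higher, and at 8 h 27 and 6. Their median log2 fold change at 4 h was -0.12 beside 2.35 for the histone genes. At 12 h, 35 of 38 were lower with a median of -1.33, and after Dox all 38 were lower with a median of -1.45. UHRF1, which couples maintenance DNA methylation to replication, went from 110, 117, and 113 CPM with DMSO to 10.5, 8.83, and 9.95 CPM at 12 h (-3.54 ± 0.10), and CDCA7 from 56.7, 57.3, and 54.7 CPM to 12.4, 10.7, and 12.9 CPM after Dox (-2.23 ± 0.09). Of 26 histone chaperones and importers, 10 were higher and 6 lower at 4 h, 7 higher and 11 lower at 8 h, 4 higher and 19 lower at 12 h, and 3 higher and 22 lower after Dox. The numbers lower at 4 and 8 h were near the shares of all genes. The chaperone HJURP had the largest change after Dox (-1.48) and the histone importer IPO4 at 12 h (-1.70).

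**Figure D5:**
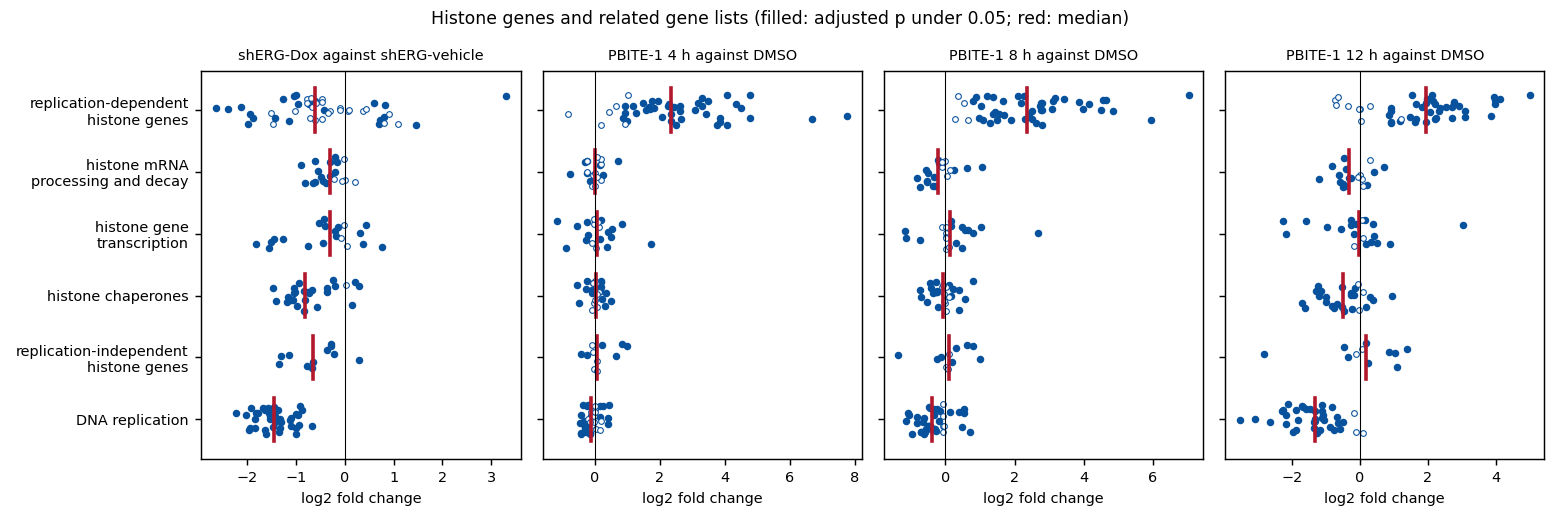
Log2 fold change of each tested gene of the histone family and of 5 related lists after Dox and after 4, 8, and 12 h of PBITE-1 (a scale of its own in each panel); filled points passed an adjusted p of 0.05, red bars are medians, and vertical scatter within a row has no meaning. At 4 h the histone genes have a median of 2.35 and the DNA replication genes one of -0.12, and at 12 h these are 1.96 and -1.33.

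Replication-independent histone genes are mostly spliced and polyadenylated and are made throughout the cycle. Of 11 tested, 4 were higher and 2 lower at 4 h, 6 higher and 3 lower at 12 h, and 10 were lower and 1 higher after Dox. H3-3B, which encodes the variant H3.3, rose at the 3 times (0.83, 1.02, and 0.85), and H3-3A, which encodes the same protein, passed the test at 12 h (0.23). H2AZ1 was lower after Dox (-1.14) and higher at 8 h (0.29). MACROH2A2 had the largest change at 12 h, from 67.4, 64.4, and 64.7 CPM to 9.68, 8.37, and 9.68 CPM (-2.83 ± 0.10), and CENPA, the H3 variant of centromeres, after Dox, from 40.5, 40.2, and 40.9 CPM to 15.3, 17.6, and 14.9 CPM (-1.35 ± 0.09). A list of other RNAs without a poly(A) tail was not analysed here.

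The 6 members that did not pass the filter were H2AC7, H2AC16, H2BC3, H3C3, H3C7, and H4C1, with 30 to 81 counts over all samples. None had a library above 11 counts. With no filter, H3C3 was lower at 4 h (7, 10, and 9 counts with DMSO and 2, 4, and 0 at 4 h, adjusted p = 0.0256) and, with H4C1, after Dox (adjusted p = 0.0329 and 0.0423), and the others passed no test after Dox or with PBITE-1.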

How the data were processed

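RNA-seq libraries of rRNA-depleted total RNA from 18 VCaP samples were analysed from a table of counts per gene. The authors deposited whole-number counts without normalization. The study's methods name Kallisto for quantification, whereas the submitters' processing notes name STAR, featureCounts, and the build hg38. Which of these made the table, the annotation, and the use of strand are not given in the sources used here. This bears on histone genes, because Kallisto divides reads between near-identical genes and featureCounts by default leaves out reads that map to several.

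Of 22034 identifiers, 22011 matched a current symbol. Genes were kept by filterByExpr of edgeR 4.0.16 over the 6 groups (14164 genes), scaled by TMM, and tested with voom and eBayes in limma 3.58.1 (R 4.3.3) with Benjamini-Hochberg adjustment over all tested genes, at an adjusted p under 0.05. The 6 VCaP-shERG and 12 parental samples were fitted separately, with an interaction over all 18, and the 3 PBITE-1 times share their DMSO samples. DESeq2 1.42.0 and the other alternatives are given with the sensitivity of the results. The procedure was tested on simulated data. Class sums are given without a test. Counting intervals and floors cover counting error only. The labels do not say whether replicates were separate cultures, and the study's text calls those of PBITE-1 biological. If they were technical, p-values measure only the spread between these samples. Replicate pairs differed by a chi-square of 1.70 to 4.96 per degree of freedom, so none was taken as a copy.

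The members and gene lists were chosen with earlier results of these data known. Named genes were the 2 best-counted members of each class, the extremes of each comparison among members past the test with a mean count of at least 50 over the samples compared (called well-counted), fixed members of each list, and the largest change in each list. H1-6, H2AC12, H2AC14, H2AC15, H2AC17, H2AC20, H2AC25, H2BC5, H2BC15, H2BC18, H2BC21, H3C1, H3C6, H3C13, and H4C3, and the genes named in counts, were named after their values were seen. Values of a few genes that this rule or the marker lists would name are not reported here.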

Additional observations from a re-analysis of the deposited data

Results flagged for a closer look

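The responses to Dox in VCaP-shERG cells and to 12 h of PBITE-1 in parental VCaP cells differed by an interaction test in limma (adjusted p under 0.05) for most members. The PBITE-1 response was the higher for 37 of 46 tested members, against 33.3% of all genes, and the lower for 1, against 35.1%. A total of 9 members fell after Dox and rose after PBITE-1. The share of all genes that did both is not given here. The 1 member with the lower response to PBITE-1 was H3C6, with a difference of -2.45 on the log2 scale between the responses. The 2 experiments differ in the cells (with or without the hairpin), agent, and control, and which of these goes with the difference cannot be told apart.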

How the results depend on the processing

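Every count of members kept its direction and stayed within 1.5 times its value under edgeR, DESeq2, RLE, upper-quartile or library-size scaling, 1 fit of all 18 samples, and only the groups compared. Correlations of same-numbered deviations were near 0, from -0.0232 to 0.0414. They were the highest for the own number in all 3 replicates of the Dox comparison, but not always with PBITE-1. Values this small neither show nor exclude a pairing of the samples. A replicate block changed no count by over 1.5 times (14 lower and 7 higher after Dox, 39, 41, and 38 higher at 4, 8, and 12 h). Other settings left fewer members to count. With at least 10 counts in every sample, 6 members were lower after Dox, 21, 20, and 18 higher at 4, 8, and 12 h, 3 lower from 4 to 8 h, 11 lower from 8 to 12 h, and 20 higher and 0 lower by the interaction. Counting only members at the filter level in every untreated sample (an alternative chosen after seeing the data), 24, 25, and 23 were higher at 4, 8, and 12 h, 5 lower from 4 to 8 h, 14 lower from 8 to 12 h, and 0 lower by the interaction. With an absolute log2 fold change above 1, 2 were higher after Dox, 0 lower and 1 higher from 4 to 8 h, and 9 lower and 0 higher from 8 to 12 h. With no filter, 1 was lower at 4 h.

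With single samples left out there were 13 to 18 lower and 6 to 7 higher after Dox, 37 to 40, 37 to 41, and 35 to 38 higher at 4, 8, and 12 h, 7 to 9 lower and 5 to 8 higher from 4 to 8 h, 21 to 23 lower and 3 to 4 higher from 8 to 12 h, and 35 to 37 higher by the interaction. Among single calls lost under several of the settings above were those of H2AC17, H3C1, and H4C3 after Dox and of H3C1 and H3C6 at 4 h. So were those of H2BC13, H2BC9, and H3C11 at 8 h, and of H2AC15 and H2BC17 from 8 to 12 h.

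The log2 ratio of the summed level after Dox, -0.13, turned to 0.0339 with upper-quartile scaling and 0.13 with library size, and the median over members was -0.61. The H2B ratio turned to 0.0935 and 0.19 under these scalings. Without the best-counted member, the H2A ratio after Dox turned to -0.51, and the medians of H2A and H3 members were -0.67 and -0.40 where their sums rose. For PBITE-1, leaving out the best-counted member gave 2.48, 2.54, and 2.08 at 4, 8, and 12 h and -0.46 from 8 to 12 h. Library size gave 2.32 at 8 h, and the median was 1.96 at 12 h and -0.65 from 8 to 12 h. From 4 to 8 h the sum (0.10) turned to -0.0443 as a median, the H2B sum to -0.0002 as a median, the H4 sum to -0.0335 without its best-counted member, and that of H1 (-0.0572) to 0.0017 without PBITE-1 4 h replicate 1 (lowest without 1 sample, -0.0871), and moved to -0.57 without H1-2 and to -0.47 as a median. The cause of these moves was not tested. Levels under about 1 CPM rest on fewer than 20 counts per library and are the least precise.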
